A study of Mus musculus with 33 samples.

Results

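The genes of mitosis and of the passage from G2 into M phase were followed through the hepatic transcriptomes of L-G6pc-/- mice treated with shRNA against ChREBP and of their controls. The set holds 49 genes named one by one for what their products do in cell division. Each was matched by its symbol in the deposited count table, and all 49 were found among its 25988 genes. Levels are given as CPM, counts scaled to the size of each library, with library sizes corrected by TMM for differences in RNA composition.

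Liver RNA of male C57BL/6J mice was sequenced from the 3′ end of transcripts (QuantSeq) in 33 libraries. All mice carried B6.G6pc lox/lox alleles and received an AAV with a short hairpin RNA at an age of 13 to 18 weeks, followed by tamoxifen on 5 consecutive days, and livers were taken 10 days after the last injection. L-G6pc-/- mice also carried a tamoxifen-inducible Cre driven by the albumin promoter, so that G6pc, which encodes the catalytic subunit of glucose-6-phosphatase, was deleted in hepatocytes only, and L-G6pc+/+ mice carried no Cre. The hairpin was scrambled (shSCR) or directed against ChREBP (shChREBP), the glucose-sensing transcription factor encoded by Mlxipl. L-G6pc+/+ mice gave 8 libraries with shSCR (s1 to s8) and 8 with shChREBP (s9 to s16), and L-G6pc-/- mice gave 8 with shSCR (s17 to s24) and 9 with shChREBP (s25 to s33). Because the labels do not say that each library is a separate mouse, n counts libraries, and p-values measure the spread between libraries. The comparison of shChREBP with shSCR in L-G6pc-/- livers asks how ChREBP normalization alters a liver that models glycogen storage disease type Ia.

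Cell division is driven by the kinase CDK1, which is switched on by cyclins B and A at the end of G2. Aurora and polo-like kinases then build the spindle, kinetochores tie chromosomes to it, and the spindle checkpoint holds back the anaphase-promoting complex (APC/C) until all chromosomes are attached. Transcripts of most of these genes are made late in the cell cycle, and the adult liver, whose hepatocytes rarely divide, holds few of them. In bulk liver, more dividing cells and more RNA per dividing cell cannot be told apart, nor can the cell type that divides be read from these values.

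The promoters of such genes often hold CCAAT boxes and cell cycle homology regions, and both were found in many of the members. RefSeq windows of 300 bases, from 250 bases before to 50 after the start of transcription in GRCm38.p6, were at hand for 41 of the 49 members. The letters CCAAT stood at least once, on either strand, in 31 of these (75.6%), against 41.1% of the 27025 genes in the promoter table. They stood there at least 2 times in 23 members (56.1%), against 13.3% of all genes. The letters TTTGAA, or their variant form TTCGAA, which make up the core of cell cycle homology regions, stood in 31 members (75.6%) and in 21.7% of all genes. Both kinds of letters occurred in 1 window in 27 members (65.9%) and in 8.61% of all genes. Neither pattern was used to choose the genes, and no site was measured here. The stretches of 150 bases before the start are printed for the member with the largest fold change (Cdc20), the central mitotic kinase (Cdk1), a further kinase (Aurka), an abundant member with many such letters (Top2a) and a member that rose although its window holds none of them (Nusap1). Capitals mark these 3 motifs on either strand, so that a motif on the other strand appears as its reverse complement.
Cdc20, chr4:118437344-118437493, minus strand: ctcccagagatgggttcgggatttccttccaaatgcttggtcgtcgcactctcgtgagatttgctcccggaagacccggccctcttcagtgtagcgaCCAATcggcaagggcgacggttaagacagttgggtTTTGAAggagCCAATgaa
Cdk1, chr10:69352913-69353062, minus strand: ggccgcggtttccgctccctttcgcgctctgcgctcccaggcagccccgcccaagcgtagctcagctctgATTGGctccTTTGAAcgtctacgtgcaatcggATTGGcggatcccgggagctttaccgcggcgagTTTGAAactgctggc
Aurka, chr2:172370571-172370720, minus strand: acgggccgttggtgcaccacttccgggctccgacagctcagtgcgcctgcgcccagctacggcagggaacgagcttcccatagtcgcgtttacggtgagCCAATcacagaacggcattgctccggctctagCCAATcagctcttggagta
Top2a, chr11:99024190-99024339, minus strand: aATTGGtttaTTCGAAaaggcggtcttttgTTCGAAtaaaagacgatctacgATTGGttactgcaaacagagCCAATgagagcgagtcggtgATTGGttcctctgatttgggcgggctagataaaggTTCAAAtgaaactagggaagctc
Nusap1, chr2:119618148-119618297, plus strand: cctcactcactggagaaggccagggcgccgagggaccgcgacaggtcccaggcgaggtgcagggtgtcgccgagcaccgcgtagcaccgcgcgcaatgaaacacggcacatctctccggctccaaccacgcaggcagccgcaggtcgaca

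The members were rare transcripts. They took 23476 counts in all 33 libraries together, in libraries of 1497843 to 3546852 counts (median 2141043), and their summed counts per member fell as low as 13 for Stmn1, which encodes a microtubule-destabilizing protein. The filter on low counts (filterByExpr of edgeR) kept 10179 genes, among them 22 of the 49 members. Of these 22, 12 passed only because of the shChREBP/L-G6pc-/- libraries, so a count over the 22 alone favours that group, and a second fit with a lower filter (at least 10 counts in all) covered all 49 members among 17586 genes. Pttg1, which encodes securin, the inhibitor of separase, was the most abundant member at a mean of 65.6 CPM and held 20.9% of the summed level. Spc24, a subunit of the NDC80 kinetochore complex, followed at 24.04 CPM, Top2a, the type II topoisomerase of dividing cells, at 23.97 CPM, and Birc5, the survivin subunit of the chromosomal passenger complex, at 21.9 CPM. Because 1 read was sequenced per transcript end, these levels do not scale with transcript length.

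The knockdown target Mlxipl fell with shChREBP in both genotypes. It ran from 449 to 612 CPM (median 528) in shSCR/L-G6pc+/+, from 292 to 413 (median 394) in shChREBP/L-G6pc+/+, from 514 to 633 (median 578) in shSCR/L-G6pc-/- libraries and from 216 to 500 (median 441) in shChREBP/L-G6pc-/- libraries. On the log2 scale the change was -0.57 in L-G6pc-/- (adjusted p = 0.00417 by edgeR's quasi-likelihood test with Benjamini-Hochberg adjustment, as for every adjusted p here unless another tool is named, with SE for standard error) and -0.55 in L-G6pc+/+ livers (adjusted p = 0.0129). Reads of G6pc itself were not called lower in L-G6pc-/- than in L-G6pc+/+ livers under shSCR (log2 fold change 0.56, adjusted p = 0.368, with 158 to 752 CPM against 78.7 to 364 CPM). They come from the 3′ end of the transcript, and the sources used here do not say whether this lies in the deleted part, so they do not check the genotype. Over all genes, 4 libraries of the shChREBP/L-G6pc-/- group stood apart from the rest of it (s29, s30, s32, s33), and results are also given without them. They were taken as a fixed set, with no cut-off computed here. In them 16.7% to 18.4% of tested genes lay above every shSCR/L-G6pc-/- library, against 7.94% to 11.4% in the rest. They also had the lowest Mlxipl of the group (216 to 359 against 441 to 500 CPM), so leaving them out removes the lowest levels of the target. Without these 4 libraries the change of Mlxipl in L-G6pc-/- livers was -0.27 (adjusted p = 0.214). All 12 hepatocyte marker genes passed the filter in these livers.

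The summed level of the 49 members was highest in shChREBP/L-G6pc-/- livers, and it varied widely between the libraries of that group. It ran from 144 to 256 CPM (median 176) in shSCR/L-G6pc+/+ libraries. With shChREBP/L-G6pc+/+ it ran from 143 to 547 CPM (median 204). In shSCR/L-G6pc-/- it lay between 191 and 348 CPM (median 251). The 9 shChREBP/L-G6pc-/- libraries were at 717 (s25), 355 (s26), 317 (s27), 314 (s28), 965 (s29), 744 (s30), 241 (s31), 857 (s32) and 399 CPM (s33). Of the 9, 4 (s25, s29, s30 and s32) were above every library of the other groups, s26 and s33 lay just above the range of the shSCR/L-G6pc-/- libraries, and s27, s28 and s31 lay within it. The group means were 181 ± 36.6 (SD, n = 8), 240 ± 130 (SD, n = 8), 257 ± 49.9 (SD, n = 8) and 546 ± 273 CPM (SD, n = 9) in the order given. This is a ratio of 2.12 for shChREBP in L-G6pc-/-, 1.33 for shChREBP in L-G6pc+/+, 1.42 for G6pc deficiency under shSCR, 2.27 for G6pc deficiency under shChREBP, and 3.01 between shChREBP/L-G6pc-/- and shSCR/L-G6pc+/+. These comparisons share libraries, and no test was made of a sum over chosen genes. Pttg1, Cks1b and Spc24, which were called in no comparison among the 22 members that passed the filter, held 33.9% of the sum. Without s29, s30, s32 and s33 the mean of shChREBP/L-G6pc-/- was 389 ± 188 CPM (SD, n = 5) and the ratio to shSCR/L-G6pc-/- was 1.51.

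**Figure D1:**
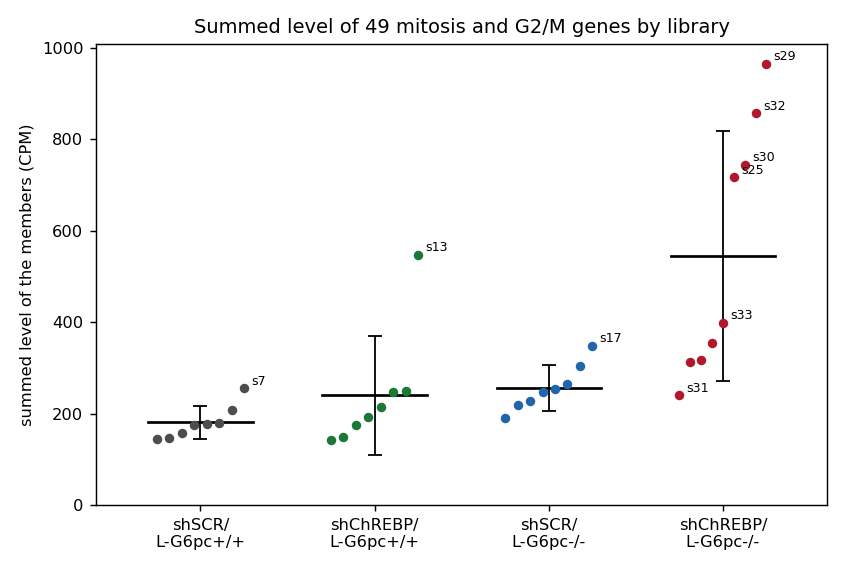
Summed CPM of the 49 members (vertical axis) for every library, arranged by group, where a point is 1 library and a line with bars the group mean ± SD. In shChREBP/L-G6pc-/-, s25, s29, s30 and s32 lie between 717 and 965 CPM and the other 5 between 241 and 399 CPM, and in shChREBP/L-G6pc+/+ s13 lies at 547 CPM.

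The libraries high in the sum were high in nearly every member. Counted against the highest shSCR/L-G6pc-/- library of each gene, 42 of 49 members were higher in s25, 42 in s29, 42 in s30 and 41 in s32. The same count was 16 in s33, 13 in s26, 13 in s27, 9 in s28 and 4 in s31. Of all 10179 tested genes, 7.94% (s28) to 18.4% (s32) were above that mark in these 9 libraries. The 49 members include 27 that did not pass the filter, so this share comes from an unlike set of genes. Library s25 was high in the members without being one of the 4 that stood apart over all genes, with 9.47% of the tested genes above the mark, and s33 was one of those 4 with a moderate sum. In shChREBP/L-G6pc+/+, s13 had 28 members above the mark. Group means gave the same order, since 47 of 49 members had their highest group mean in shChREBP/L-G6pc-/-, against 25.6% of the 17586 genes with at least 10 counts, and 43 had their lowest in shSCR/L-G6pc+/+.

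**Figure D2:**
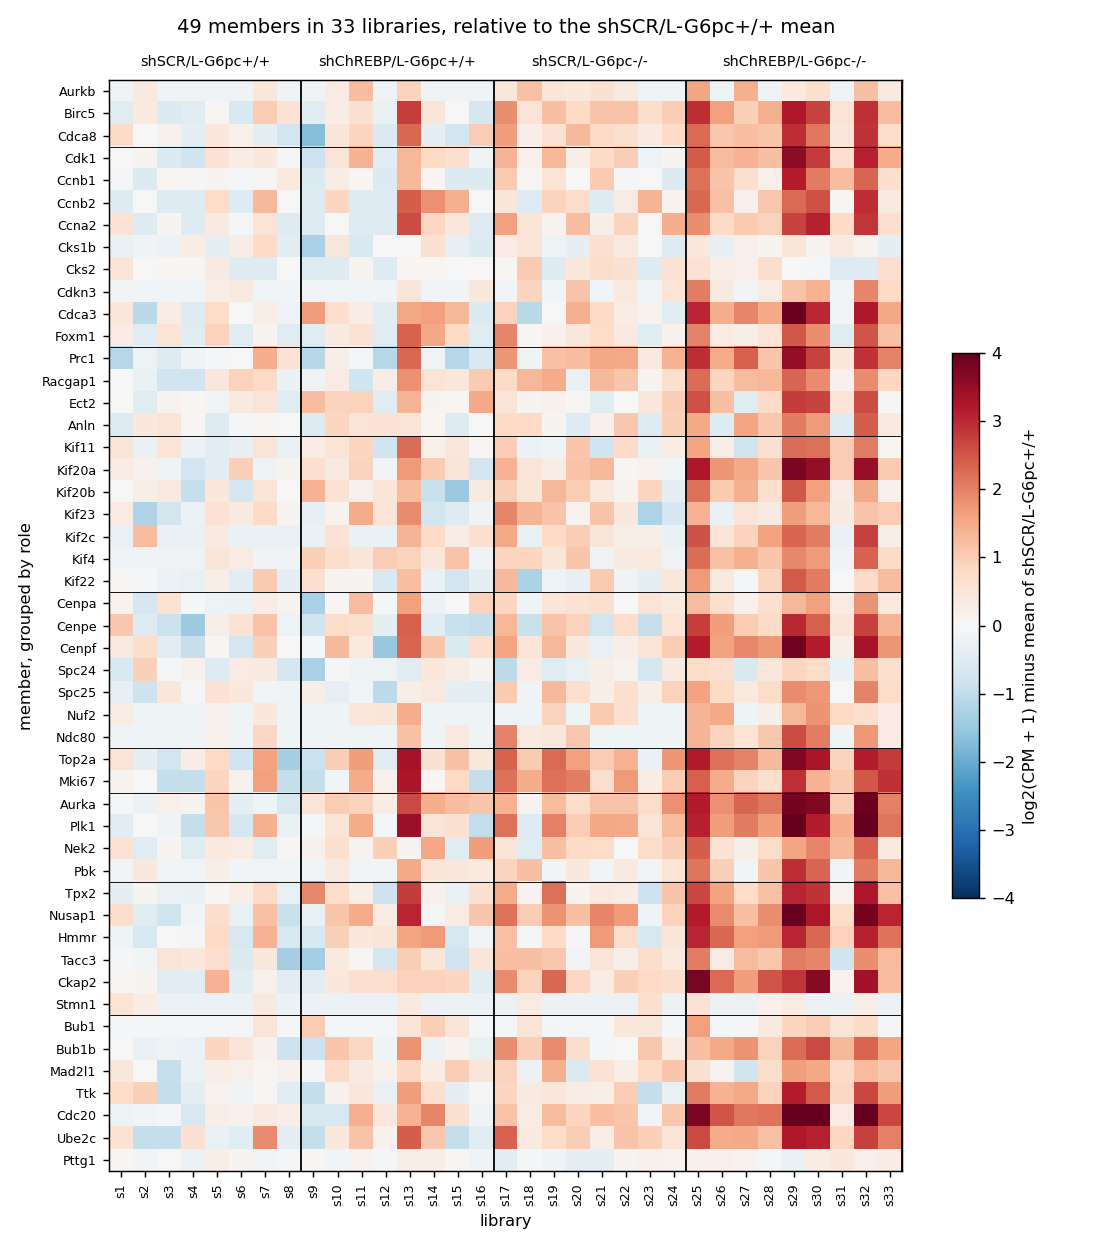
Each of the 49 members (rows, grouped by role) in each of the 33 libraries (columns), coloured by log2(CPM + 1) minus the mean of the shSCR/L-G6pc+/+ libraries, with colours saturating at 4 units. Columns s25, s29, s30 and s32, and s13 in shChREBP/L-G6pc+/+, are red over most rows, while the rows of Pttg1, Cks1b, Cks2 and Stmn1 stay pale.

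With shChREBP in L-G6pc-/- livers, 9 of the 22 tested members rose and none fell, where 3.33% of all tested genes rose. The median log2 fold change of the 22 was 1.21, against 0.01 over all genes. Of these 22, 12 passed the filter only with the shChREBP/L-G6pc-/- libraries, so the count over them favours that group. The members were also chosen with earlier results of these data known. In the fit that covered every member, 15 of 49 rose, none fell, and the median was 1.41, where 1.85% of all genes rose. Of the 9, 8 were called in that fit too, Birc5 being lost, and Ccnb1, Ckap2, Ect2, Hmmr, Kif20a, Pbk and Ttk were added. Leaving out single libraries moved the 9 calls to 5 of 20 tested members without s32 and to 14 of 22 without s31. Over all genes, 238 of 10104 and 394 of 10188 rose in these fits. Without s29, s30, s32 and s33, Cdc20 alone was called among 20 tested members, with a median log2 fold change of 0.70, and Cdc20 alone among 49 in the lower-filter fit, with a median of 0.75. Calls fell over all genes too. Without these libraries 36 of 10399 genes were higher, and 28 of 17244 in the lower-filter fit. With all libraries these counts were 339 of 10179 and 326 of 17586. The 7 members that only the lower-filter fit called were then at 1.34 (Pbk) to 2.01 (Hmmr), with adjusted p from 0.135 (Kif20a) to 0.635 (Pbk).

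None of the 22 members was called for shChREBP in L-G6pc+/+ livers (median log2 fold change 0.65, with 2.16% of all genes called higher), and none of 49 in the lower-filter fit (0.773% of genes). Without s13 the median was 0.18 over 24 tested members, with none called. At an unadjusted p under 0.05 in edgeR with all libraries, 3 of the 22 were higher, DESeq2 called Aurka, and limma-voom called 0. G6pc deficiency under shSCR also gave no call among the 22 (median 0.85, with 2.2% of genes called higher) or the 49 (1.15% of genes), with 9 of the 22 under an unadjusted p of 0.05 in edgeR and 0 called by DESeq2 or limma-voom. The share of all genes under that unadjusted mark is not given, so these counts of 3 and 9 have no background beside them. Under shChREBP, G6pc deficiency raised 16 of 22 members and 26 of 49, where 6.14% and 3.65% of all genes rose. The median log2 fold change was 1.59 over the 22. Counts over the 22, here and in the next comparison, favour the shChREBP/L-G6pc-/- group, since 12 passed the filter only with its libraries. Between shChREBP/L-G6pc-/- and shSCR/L-G6pc+/+ livers, 18 of 22 members and 42 of 49 were higher, where 6.87% and 3.9% of all genes were, and the median was 2.27 over the 22 and 2.55 over the 49. By role, the 42 were 7 of 9 cyclins, CDK1 and regulators, all 4 mitotic kinases, 2 of 3 passenger complex members, 6 of 7 checkpoint and APC/C members, 6 of 7 kinetochore members, 6 of 7 kinesins, 5 of 6 spindle assembly factors, all 4 cytokinesis members and both chromosome-bound ones. Nusap1 (3.16 on the log2 scale, adjusted p = 4.55e-05), Plk1 (3.12, adjusted p = 0.000199) and Top2a (2.58, adjusted p = 0.000231) were among them. Without s29, s30, s32 and s33, 10 of 20 tested members and 15 of 49 were called there, where 175 of 10399 and 166 of 17244 genes were higher. For G6pc deficiency under shChREBP these counts fell to 4 (Cdc20, Cdk1, Prc1 and Spc25) and 5 (Cdc20, Ckap2, Kif20a, Prc1 and Spc25). Over all genes, 551 of 10399 and 506 of 17244 were then higher with G6pc deficiency under shChREBP. Among the 22 tested members, those without a call between shChREBP/L-G6pc-/- and shSCR/L-G6pc+/+ livers were Cks1b, Kif23, Pttg1 and Spc24. No member was called lower in any of these comparisons.

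The rise with shChREBP was not shown to differ between the genotypes. The difference between the shChREBP effects in L-G6pc-/- and L-G6pc+/+ livers, tested as an interaction, had a median of 0.49 on the log2 scale over the 22 members, and none passed (0.0589% of all genes did in the positive direction, and 0.0341% in the lower-filter fit, which called none of 49). At an unadjusted p under 0.05, 3 of the 22 members showed such a difference in edgeR, and DESeq2 and limma-voom called 0. The share of all genes under that unadjusted mark is not given, here or for the fit without s13. The median rested on few libraries: it was 1.01 over 24 tested members without s13, with 7 under an unadjusted p of 0.05 and none called, and 0.18 over 20 members without s29, s30, s32 and s33. For Cdc20 the difference was 1.52 with an interval from -0.66 to 3.69 (95%).

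**Figure D3:**
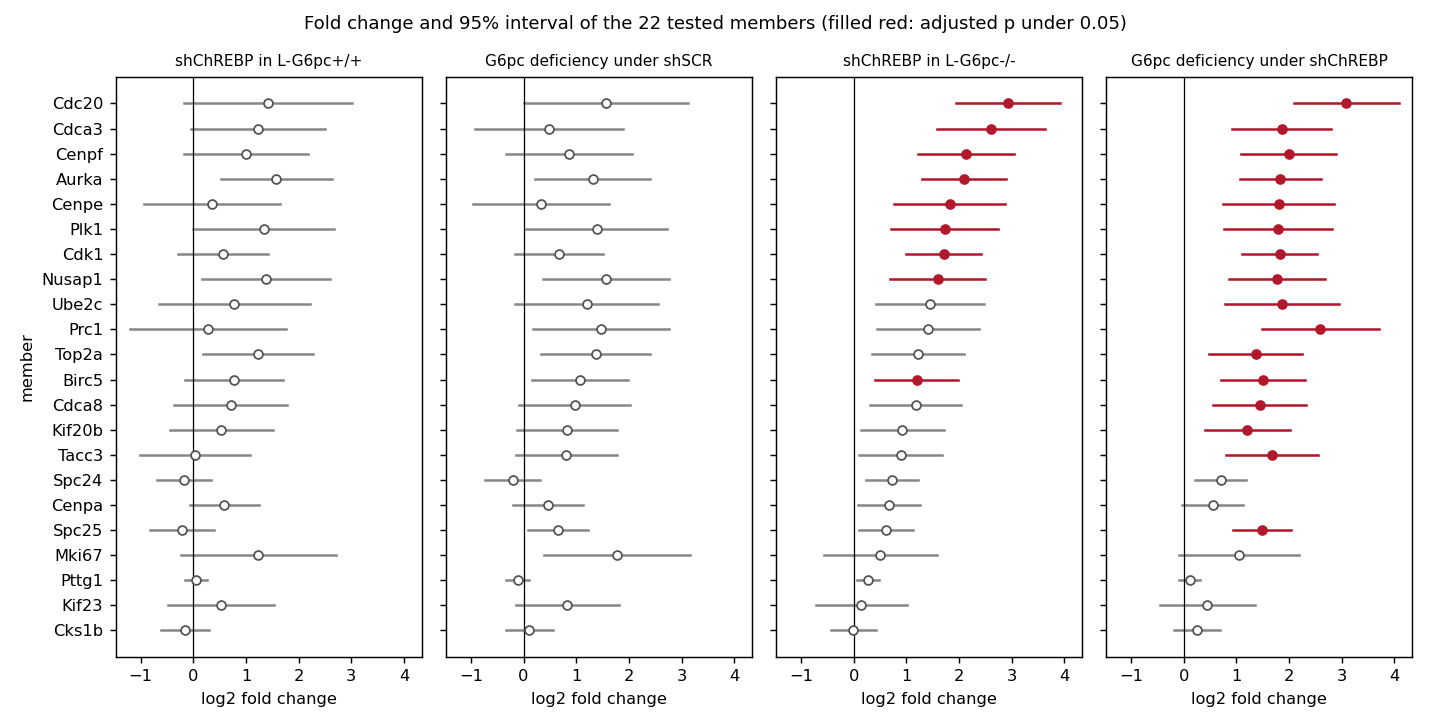
Log2 fold changes with 95% intervals of the 22 tested members in 4 comparisons, ordered by the change with shChREBP in L-G6pc-/- livers, with filled red points for adjusted p under 0.05. Both comparisons on the right share the shChREBP/L-G6pc-/- libraries, and 9 and 16 members are red there, while none is red on the left.

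Among the cyclins and CDK1 with its regulators, Cdk1, the kinase that starts mitosis, was measured at 2.92 to 9.18 CPM (median 6.17) in shSCR/L-G6pc+/+ libraries. Its values were 2.88 to 16.8 CPM (median 9.34) in shChREBP/L-G6pc+/+, 4.96 to 16.4 (median 8.80) in shSCR/L-G6pc-/- libraries and 9.77 to 80.8 (median 18.0) in shChREBP/L-G6pc-/- libraries. Each shChREBP/L-G6pc-/- library was above all shSCR/L-G6pc+/+ libraries, and the group overlapped with both others. Cdk1 rose with shChREBP in L-G6pc-/- livers by 1.71 on the log2 scale (SE 0.35, adjusted p = 0.00173), and under each of 17 fits without 1 library it was called (1.42 to 1.84). Without s29, s30, s32 and s33 the change was 0.91 (adjusted p = 0.198). Cdca3, an entry-into-mitosis factor that promotes degradation of the kinase WEE1, ran from 0 to 4.63 CPM (median 1.48) in shSCR/L-G6pc-/- libraries and from 0.977 to 31.1 CPM (median 7.12) in shChREBP/L-G6pc-/- libraries, with a log2 fold change of 2.61 (SE 0.51, adjusted p = 0.000925).

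The cyclins themselves were close to the limit of detection. Cyclin B1 (Ccnb1) gave 9, 9, 13 and 89 counts in L-G6pc+/+ livers with shSCR and with shChREBP and in L-G6pc-/- livers with shSCR and with shChREBP, in that order, which holds for all sets of 4 counts given here. Ccnb2 gave 12, 32, 17 and 91 counts, and Ccna2, which encodes cyclin A2, gave 10, 21, 26 and 101. In the lower-filter fit Ccnb1 rose with shChREBP in L-G6pc-/- livers (log2 fold change 2.24, adjusted p = 0.0109), and Ccna2 and Ccnb2 were called only between shChREBP/L-G6pc-/- and shSCR/L-G6pc+/+ livers (3.003 and 2.595, adjusted p = 0.0026 and 0.0123). Foxm1, the transcription factor of many G2/M genes, had 11, 25, 18 and 67 counts and was called there too (2.33, adjusted p = 0.0339), and without s29, s30, s32 and s33 none of these 3 was (1.33 to 1.96, adjusted p = 0.225 to 0.575). Its exons overlap those of Gm44596 and Tex52 on the same strand. The pair of small CDK-binding proteins moved otherwise. Cks1b lay at 11.4 to 27.8 CPM (median 13.7) in shSCR/L-G6pc+/+, 5.75 to 24.1 (median 13.9) in shChREBP/L-G6pc+/+, 10.52 to 25.3 (median 17.6) in shSCR/L-G6pc-/- livers and 11.6 to 21.9 CPM (median 17.2) in shChREBP/L-G6pc-/- libraries. All 4 groups overlapped, and with shChREBP in L-G6pc-/- livers the log2 difference was -0.01 with a 95% interval from -0.44 to 0.42, its sign turning to 0.10 with library size only as scaling. The window of Cks1b holds 4 CCAAT and 2 TTTGAA on either strand, against 3 and 2 in that of Cdk1.

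Both tested mitotic kinases rose with shChREBP in L-G6pc-/- livers. Aurka, the centrosomal Aurora kinase, was measured at 0.454 to 3.89 CPM (median 1.06) in shSCR/L-G6pc+/+, 1.74 to 12.9 (median 3.73) in shChREBP/L-G6pc+/+, 1.47 to 7.01 (median 4.003) in shSCR/L-G6pc-/- libraries and 3.42 to 32.9 CPM (median 10.4) in shChREBP/L-G6pc-/- libraries. In L-G6pc-/- livers shChREBP raised it by 2.09 on the log2 scale (SE 0.39, adjusted p = 0.000611), and it was called in all 17 fits without 1 library. Aurka also came nearest to a call among the members for shChREBP in L-G6pc+/+ livers (1.58, adjusted p = 0.0657), where DESeq2, the deposited normalized values, the fit without s29, s30, s32 and s33 (adjusted p = 0.0245) and the fit without s5 called it. Plk1, the polo-like kinase of spindle and cytokinesis, ran from 0.977 to 11.9 CPM (median 6.53) in shSCR/L-G6pc-/- libraries and from 6.84 to 50.1 CPM (median 11.6) in shChREBP/L-G6pc-/- libraries. In L-G6pc+/+ livers it ran from 0.486 to 6.56 CPM with shSCR, below every shChREBP/L-G6pc-/- library, and from 0.432 to 29.4 CPM with shChREBP. In L-G6pc-/- livers Plk1 rose by 1.73 on the log2 scale with shChREBP (SE 0.50, adjusted p = 0.0263), and the call was lost without s18, s23, s29 or s32 (1.46 to 1.62, adjusted p = 0.0548 to 0.0785). Among the kinases below the filter, Ttk, the checkpoint kinase MPS1, gave 22, 24, 24 and 152 counts in the 4 groups and rose in the lower-filter fit (2.19, adjusted p = 0.00245), as did Pbk with 2, 8, 8 and 58 counts (2.27, adjusted p = 0.0335). Ttk is counted here with the spindle checkpoint role. Nek2, the other mitotic kinase below the filter, was not called with shChREBP in L-G6pc-/- livers. It ran from 0 to 2.23 CPM with shSCR and from 0.648 to 6.49 CPM with shChREBP in those livers.

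**Figure D4:**
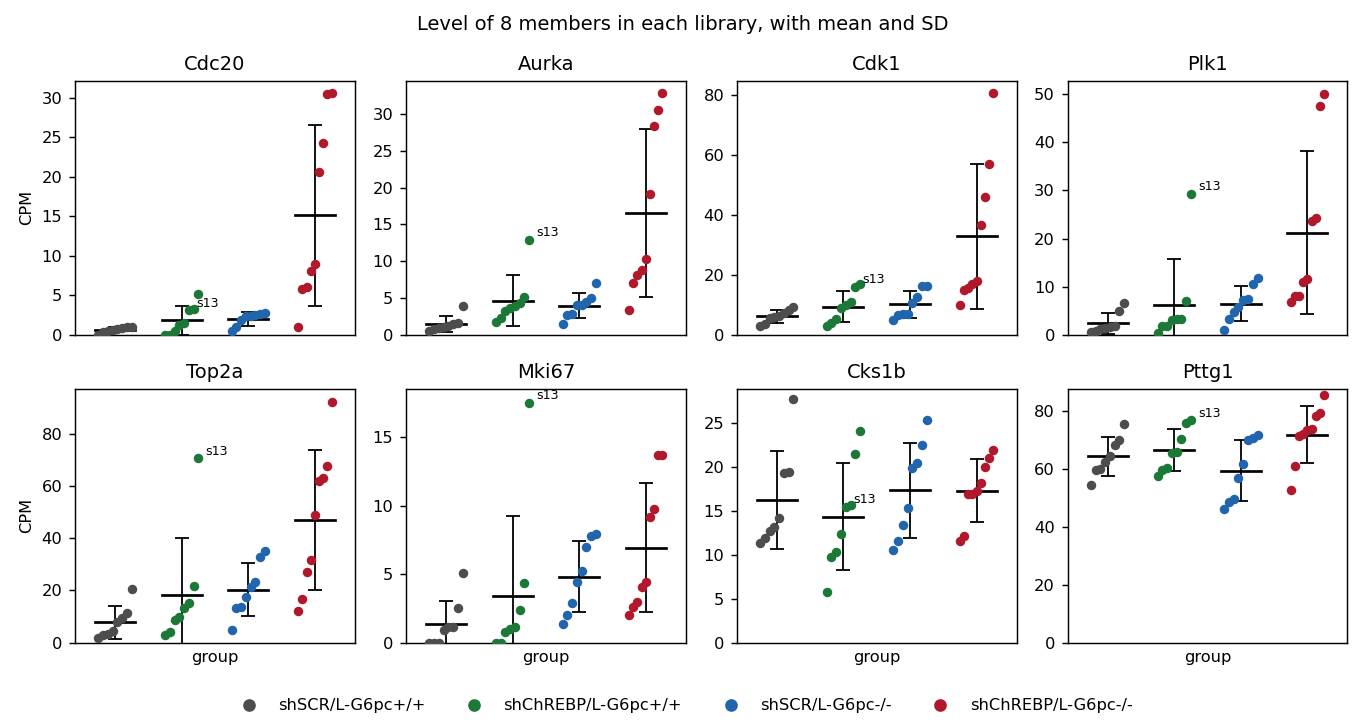
CPM of 8 members in each library by group, with the mean ± SD (bars running under 0 are cut at the axis). Cdc20, Aurka, Cdk1, Plk1 and Top2a have their highest libraries in shChREBP/L-G6pc-/-, Mki67 has its highest in s13 of shChREBP/L-G6pc+/+ at 17.5 CPM, and Cks1b and Pttg1 overlap in all 4 groups.

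The chromosomal passenger complex, which corrects attachments of chromosomes to the spindle, was represented by Birc5, Cdca8 and Aurkb. Birc5 ran from 5.01 to 17.7 CPM (median 7.09) in shSCR/L-G6pc+/+, from 4.75 to 60.8 (median 9.19) in shChREBP/L-G6pc+/+, from 12.2 to 32.2 (median 18.1) in shSCR/L-G6pc-/- libraries and from 12.2 to 83.1 CPM (median 27.6) in shChREBP/L-G6pc-/- libraries. The shChREBP/L-G6pc-/- libraries spanned the range of the shSCR/L-G6pc-/- group and went beyond it. Its log2 fold change with shChREBP in L-G6pc-/- livers was 1.20 (SE 0.39, adjusted p = 0.0489), a call that only 6 of 17 fits without 1 library kept (adjusted p = 0.0234 to 0.119), the others being those without s18 to s25, s29, s30 or s32. Cdca8, which encodes borealin, was not called there (1.18, adjusted p = 0.0793) and rose with G6pc deficiency under shChREBP (1.44, adjusted p = 0.0262), though not without s12, s14, s15, s29 or s32 (1.23 to 1.32, adjusted p = 0.0533 to 0.0715). Aurkb, the catalytic subunit, had 2, 6, 8 and 17 counts in the 4 groups and was called in no comparison of the lower-filter fit.

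Cdc20 had the largest rise with shChREBP in L-G6pc-/- livers among the 22 tested members. Its product activates the APC/C at the start of anaphase, and its exons overlap those of Elovl1 on the other strand (chromosome 4, 118432901 to 118437352, GRCm38). It lay at 0 to 1.01 CPM (median 0.649) in shSCR/L-G6pc+/+ and at 0 to 5.12 (median 1.29) in shChREBP/L-G6pc+/+ libraries. In L-G6pc-/- livers it lay at 0.451 to 2.78 CPM (median 2.37) with shSCR and at 0.977 to 30.6 CPM (median 8.98) with shChREBP. Of the 9 libraries, 8 were above all shSCR/L-G6pc-/- libraries and s31 was within their range. The log2 fold change was 2.93 (SE 0.48, adjusted p = 0.000125), it was called in all 17 fits without 1 library, and without s29, s30, s32 and s33 it was 2.10 (adjusted p = 0.0251). Elovl1, which could share reads with it if strands were not counted apart, had a log2 fold change of -0.00 (SE 0.10, adjusted p = 0.997). Ube2c, the ubiquitin-conjugating enzyme of the APC/C, ran from 1.33 to 8.92 CPM (median 2.47) in shSCR/L-G6pc-/- libraries and from 2.44 to 16.9 CPM (median 6.84) in shChREBP/L-G6pc-/- libraries. It did not pass in this comparison (1.44, adjusted p = 0.073) but did without s17, s28 or s31 (1.55 to 1.89, adjusted p = 0.0262 to 0.0492), and it rose with G6pc deficiency under shChREBP (1.87, adjusted p = 0.0192). Pttg1 stood apart in this role. It lay at 54.5 to 75.4 CPM (median 63.3) in shSCR/L-G6pc+/+, 57.4 to 76.7 (median 65.7) in shChREBP/L-G6pc+/+, 46.1 to 71.7 (median 59.2) in shSCR/L-G6pc-/- libraries and 52.5 to 85.5 CPM (median 73.2) in shChREBP/L-G6pc-/- libraries. Its highest shChREBP/L-G6pc-/- library was s31, which was lowest in the sum of the members, and its lowest was s29, which was highest in that sum. The log2 difference was 0.27 with a 95% interval from 0.07 to 0.48 (adjusted p = 0.0932, and 0.0493 without s29).

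At kinetochores and centromeres, Cenpf and Cenpe rose with shChREBP in L-G6pc-/- livers. Cenpf, a large protein of the outer kinetochore, ran from 0.486 to 4.54 CPM (median 1.88) in shSCR/L-G6pc+/+, from 0 to 13.4 (median 3.08) in shChREBP/L-G6pc+/+, from 1.33 to 7.43 (median 3.04) in shSCR/L-G6pc-/- libraries and from 2.44 to 40.6 CPM (median 9.71) in shChREBP/L-G6pc-/- libraries. The log2 fold change was 2.13 (SE 0.45, adjusted p = 0.00247). Cenpe, the kinetochore motor, ran from 0.451 to 5.95 CPM (median 3.27) with shSCR and from 2.93 to 21 CPM (median 7.72) with shChREBP in L-G6pc-/- livers (log2 fold change 1.82, SE 0.52, adjusted p = 0.0239), and lost its call without s18, s21, s23, s29 or s32 (1.64 to 1.70, adjusted p = 0.0508 to 0.0596). Spc24 and Spc25 form 1 arm of the NDC80 complex and were called in different numbers of comparisons. Spc25 was not called with shChREBP in L-G6pc-/- livers (0.62, adjusted p = 0.125) and rose with G6pc deficiency under shChREBP (1.49, adjusted p = 0.000321), from 3.48 to 10.8 CPM (median 6.97) in shChREBP/L-G6pc+/+ to 8.31 to 35.2 CPM (median 15.1) in shChREBP/L-G6pc-/- libraries. Spc24 was called in none of them. It lay at 13.2 to 42.5 CPM in shSCR/L-G6pc+/+, 8.05 to 28.7 in shChREBP/L-G6pc+/+, 9.91 to 27.5 in shSCR/L-G6pc-/- libraries and 13.6 to 50.5 CPM in shChREBP/L-G6pc-/- libraries, and its log2 difference in L-G6pc-/- livers was 0.73 (95% interval 0.24 to 1.22, adjusted p = 0.056), which passed without s18, s24, s27 or s31 (0.81 to 0.82, adjusted p = 0.0246 to 0.0481). Cenpa, the histone variant of centromeres, was higher in shChREBP/L-G6pc-/- than in shSCR/L-G6pc+/+ livers (1.14, adjusted p = 0.00817) and was not called elsewhere. No test was made of the difference between Spc24 and Spc25.

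Of the spindle, kinesin and cytokinesis members, 1 of 5 tested rose with shChREBP in L-G6pc-/- livers. Nusap1, a microtubule-bundling protein near chromatin, ran from 0.454 to 5.05 CPM (median 1.31) in shSCR/L-G6pc+/+, 1.15 to 21.1 (median 3.56) in shChREBP/L-G6pc+/+, 1.35 to 10.9 (median 6.36) in shSCR/L-G6pc-/- libraries and 3.42 to 40.2 CPM (median 20.9) in shChREBP/L-G6pc-/- libraries. With shChREBP in L-G6pc-/- livers it rose by 1.60 (SE 0.44, adjusted p = 0.0199), and the call was lost without s29 or s32 (1.39 and 1.41, adjusted p = 0.0578 and 0.0546). Prc1, which bundles the microtubules of the central spindle, lay at 0.977 to 6.44 CPM (median 4.42) with shSCR and at 1.95 to 23.7 CPM (median 10.4) with shChREBP in livers of L-G6pc-/- mice. Prc1 was not called in that comparison (1.41, adjusted p = 0.0621, with calls without s26, s28 or s31 at 0.0312 to 0.0457) and rose with G6pc deficiency under shChREBP (2.59, adjusted p = 0.00172). Tacc3, a partner of clathrin on spindle fibres, and the kinesin Kif20b rose in the latter comparison too (1.67 and 1.21, adjusted p = 0.00831 and 0.0436), the call of Kif20b being lost in 11 of 17 fits without 1 library (0.996 to 1.24, adjusted p = 0.0529 to 0.114). The kinesin Kif23, a motor of cytokinesis, was called nowhere and had a log2 difference of 0.14 with shChREBP in L-G6pc-/- livers (95% interval -0.72 to 1.01). Of the members below the filter, Kif20a, the motor that brings the passenger complex to the midzone, gave 16, 28, 28 and 225 counts in the 4 groups (2.50, adjusted p = 0.000971), and Hmmr, a spindle-binding protein, gave 15, 25, 22 and 160 (2.33, adjusted p = 0.0037). Ckap2, a microtubule-stabilizing protein, had 12, 15, 34 and 187 counts (1.93, adjusted p = 0.0118), and Ect2, the exchange factor that starts furrow ingression, had 8, 25, 11 and 92 (2.49, adjusted p = 0.00825). Stmn1 had 4, 1, 3 and 5 counts and Cks2 10, 5, 14 and 15, and neither was called. Kif11, Kif2c, Kif4, Kif22, Tpx2, Racgap1 and Anln, also below the filter, were not called with shChREBP in L-G6pc-/- livers. By role, the lower-filter fit called 1 of 7 kinesins, 3 of 6 spindle assembly members and 1 of 4 cytokinesis members in that comparison.

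Top2a and Mki67, the members bound to mitotic chromosomes, were not called with shChREBP in L-G6pc-/- livers. Top2a ran from 1.82 to 20.7 CPM (median 6.17) in shSCR/L-G6pc+/+, from 2.88 to 70.6 (median 11.4) in shChREBP/L-G6pc+/+, from 4.96 to 35.2 (median 19.5) in shSCR/L-G6pc-/- libraries and from 12.2 to 92.2 CPM (median 48.8) in shChREBP/L-G6pc-/- libraries. Its log2 difference with shChREBP was 1.21 in L-G6pc-/- (SE 0.43, adjusted p = 0.0755, with 0.0416 without s31 and 0.046 without s28) and 1.22 in L-G6pc+/+ livers (SE 0.52, adjusted p = 0.153). It rose with G6pc deficiency under shChREBP (1.36, adjusted p = 0.0359), a call that 7 of 17 fits without 1 library kept (adjusted p = 0.000733 to 0.0877). Mki67, which encodes the proliferation antigen Ki-67, ran from 0 to 5.05 CPM (median 1.02) in shSCR/L-G6pc+/+, from 0 to 17.5 (median 1.09) in shChREBP/L-G6pc+/+, from 1.35 to 7.93 (median 4.804) in shSCR/L-G6pc-/- libraries and from 2.03 to 13.7 CPM (median 4.41) in shChREBP/L-G6pc-/- libraries. Of the 9 shChREBP/L-G6pc-/- libraries, 5 were at or below the median of the shSCR/L-G6pc-/- group. The log2 difference with shChREBP was 0.51 (95% interval -0.57 to 1.59, adjusted p = 0.624) and was -0.16 without s29, s30, s32 and s33. Mki67 was called only between shChREBP/L-G6pc-/- and shSCR/L-G6pc+/+ livers (2.28, adjusted p = 0.0128, and 1.61, adjusted p = 0.282, without s29, s30, s32 and s33).

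**Figure D5:**
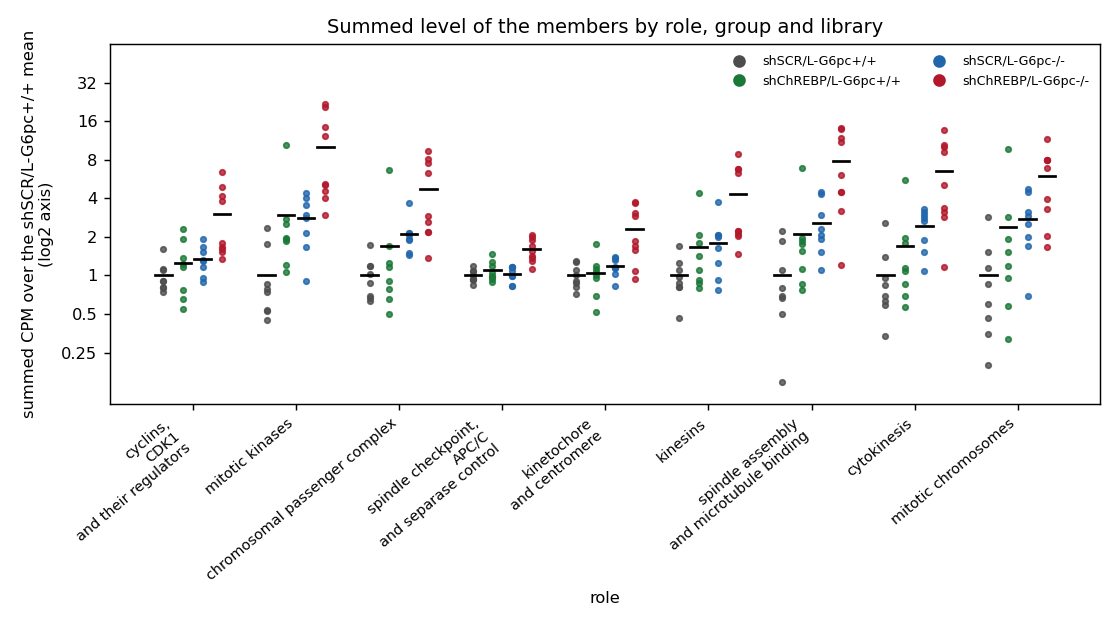
Summed CPM of the members of each role, relative to the mean of the shSCR/L-G6pc+/+ libraries (log2 axis), with points for libraries in 4 colours for the groups and bars for group means. The ratio of these means is highest for the mitotic kinases, from 4.29 CPM in the shSCR/L-G6pc+/+ mean to 43.3 CPM in the shChREBP/L-G6pc-/- mean, and lowest for the role that holds Pttg1, from 70.3 to 113 CPM.

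The promoter letters did not sort the members that rose from those that did not. Among the 9 called with shChREBP in L-G6pc-/- livers, 6 held both kinds of letters, Cenpe held CCAAT only, and Birc5 and Nusap1 held neither. Of 12 tested members with a window and without a call, 9 held both and Pttg1 and Tacc3 neither. The windows of Cdc20 and Cdk1 printed above hold both kinds, whereas the stretch of Nusap1 holds none.

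Other genes of the cell cycle were read from lists that hold none of the members, beside the 3.33% of all tested genes that rose with shChREBP in L-G6pc-/- livers. Of the 10179 tested genes, 431 fell in that comparison. The list of other mitotic genes holds 55. Of 17 tested, Arhgap11a, which promotes RhoA activity in cytokinesis, rose with shChREBP in L-G6pc-/- livers (1.498, adjusted p = 0.0237), and the median was 0.46. Between shChREBP/L-G6pc-/- and shSCR/L-G6pc+/+ livers 9 of the 17 were higher, among them the condensin subunits Ncapd2 (1.88, adjusted p = 0.00101), Smc4 (0.83, adjusted p = 0.00208) and Smc2 (1.22, adjusted p = 0.00362), but none was without s29, s30, s32 and s33. Of 15 tested subunits and adaptors of the APC/C, whose activator Cdc20 rose, none was called with shChREBP in L-G6pc-/- livers in edgeR (2 at an unadjusted p under 0.05), and the median was 0.08. No share of all genes is given at that unadjusted mark. In S phase, 1 of 25 tested genes rose in that comparison, the replicative helicase subunit Mcm6 (1.30, adjusted p = 0.00676), and the median was 0.30. Their summed level ran from 433 to 610 CPM in shSCR/L-G6pc-/- libraries and from 497 to 657 CPM in shChREBP/L-G6pc-/- libraries. Of 16 tested genes of G1 cyclins, E2F and the retinoblastoma family, none rose and Rbl2, which encodes p130, a repressor of cell cycle genes in quiescence, fell (-0.56, adjusted p = 0.0355). Of 11 tested CDK inhibitors and p53 arrest genes, 3 rose, namely Cdkn1a, the inhibitor p21 (1.25, adjusted p = 0.0101), Mdm2, the ubiquitin ligase of p53 (0.52, adjusted p = 0.00433), and Sesn2 (0.67, adjusted p = 0.0285). In all 5 of these lists, no gene was called in that comparison without s29, s30, s32 and s33. Of all 10399 genes tested in that setting, 36 rose and 70 fell. At so low a share, a lack of calls does not set short lists apart from other genes.

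Cdkn1a, Mlxipl and the hepatocyte markers lay at the end of the shChREBP/L-G6pc-/- range in s29, s30 and s32, which were high in the members. Their part in the result was not tested. They did not follow the members in every library, since s31, lowest in the sum of the members, had Cdkn1a at 86.0 CPM. Cdkn1a was at 107, 130 and 126 CPM in s29, s30 and s32, at 58.7 CPM in s25, and at 35.9 to 86.0 CPM in the other 5. Mlxipl was at 270, 263 and 216 CPM in s29, s30 and s32, 359 CPM in s33, and 441 to 500 CPM in the other 5, s25 among them at 441 CPM. The 12 hepatocyte markers together were at 17140, 15840 and 17460 CPM in s29, s30 and s32 and at 20330 to 29670 CPM in the other 6. By group this sum ran from 33440 to 39340 CPM in shSCR/L-G6pc+/+, 25820 to 42610 in shChREBP/L-G6pc+/+, 24800 to 34750 in shSCR/L-G6pc-/- libraries and 15840 to 29670 in shChREBP/L-G6pc-/-, and 4 of the 12 (Alb, Apoa2, Serpina1a and Ttr) fell with shChREBP in L-G6pc-/- livers. Of all 10179 tested genes, 431 fell and 339 rose in that comparison. The 12 markers of Kupffer cells and macrophages ran from 1031 to 2465 CPM in shSCR/L-G6pc-/- libraries and from 1638 to 2522 CPM in shChREBP/L-G6pc-/- libraries, and 3 of them (C1qa, C1qc and Clec4f) rose. Of the other cell types, lymphocyte markers summed to 20.5 to 56.1 and 31.6 to 46.6 CPM, neutrophil markers to 34.5 to 190 and 39.7 to 158, stellate cell markers to 254 to 418 and 302 to 452, and cholangiocyte markers to 37.4 to 83.4 and 44.2 to 78.1 CPM in the shSCR and the shChREBP group of L-G6pc-/-. Erythroid markers summed to 883 to 3344 and 288 to 5228 CPM, and of these types none had a marker called in that comparison. Only 1 of 12 lymphocyte, 3 of 10 neutrophil and 3 of 8 cholangiocyte markers were tested, against 7 of 9 erythroid and all 9 stellate cell markers. The lack of calls therefore does not show that these cell types were unchanged. Sinusoidal endothelial markers summed to 266 to 374 and 320 to 403 CPM, with Pecam1 called higher. Without s29, s30, s32 and s33 no marker of any of these cell types was called in that comparison, the hepatocyte and Kupffer cell markers included. Of all 10399 genes tested in that setting, only 36 rose and 70 fell.

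The library s13 decided much of the spread in shChREBP/L-G6pc+/+. It was the highest of its 8 libraries in Top2a (70.6 CPM), Birc5 (60.8 CPM), Plk1 (29.4 CPM) and Mki67 (17.5 CPM), and it was also the highest of all 33 in erythroid (7103 CPM), Kupffer cell and macrophage (2938 CPM) and neutrophil markers (288 CPM). Without it the summed level of the members in that group was 196 ± 43.6 CPM (SD, n = 7) and the ratio to shSCR/L-G6pc+/+ was 1.08. Its Cdkn1a level was 116 CPM, against 17.3 CPM in the lowest library of the group.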

How the data were processed

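Hepatic RNA of 33 libraries was read as 50-base single reads of 3′ ends. The authors used HISAT for alignment to GRCm38, SAMtools for sorting and HTSeq for counting per gene (Ensembl release 82), and deposited raw counts. Whether reads were counted by strand, and the versions of these tools, are not given in the sources used here. The authors also deposited a normalized table (a linear signal value for 11125 genes, made with voom of limma), used here on a log2 scale as an alternative. The exons of 12 members overlap another gene on the opposite strand and those of 3 on the same strand.

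Identifiers were named with GENCODE M21 (25817 of 25988). The tools were R 4.3.3, edgeR 4.0.16 (filterByExpr at min.count 10 and min.total.count 15, TMM, quasi-likelihood F-test, 4 groups in 1 fit, two-sided), limma 3.58.1 and DESeq2 1.42.0. A call is an adjusted p (Benjamini-Hochberg, all tested genes) under 0.05. Standard errors are the log2 fold change over the root of F, and CPM are counts over TMM-scaled library sizes. The fit was tested on simulated data. Members and lists were chosen with earlier results of these data known. Named were all called members, the 10 most abundant, Cdk1, Ccnb1, Ccnb2, Ccna2, Mki67, Top2a, Plk1, Foxm1, Cdc20 and Aurkb, low-count members by their counts, and called genes of each list. Alternatives were other scalings, filters, tests and sets of libraries. Replicate numbers are unique, so no pairing was made. Of 282 list symbols, 1 was not found in the table. Sequences are from RefSeq (GRCm38.p6).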

Additional observations from a re-analysis of the deposited data

Results flagged for a closer look

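In 17 of 88 group values checked, 1 library lay far from the others of its group, by a gap to its neighbour that is large against the range of the group (Dixon's criterion, which chance passes in about 1 of 20 groups). In shChREBP/L-G6pc+/+ this library was s13 each time. It was at 547 CPM in the summed level of the members, and at 12.9 CPM for Aurka, 60.8 for Birc5, 14.9 for Cdca8, 13.4 for Cenpe, 13.4 for Cenpf, 17.5 for Mki67, 21.1 for Nusap1, 29.4 for Plk1, 9.79 for Prc1, 70.6 for Top2a and 9.27 CPM for Ube2c. In shSCR/L-G6pc+/+ the library s5 was at 3.89 CPM for Aurka, and s7 at 5.05 CPM for Prc1 and 6.06 CPM for Ube2c. In shSCR/L-G6pc-/- the library s17 was at 32.2 CPM for Birc5 and 8.92 CPM for Ube2c. The genes share their libraries, so these are not independent observations.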

How the results depend on the processing

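For shChREBP in L-G6pc-/- livers, 9 members were called. The count was 15 with library size only, 15 of 49 with the lower filter, 1 without s29, s30, s32 and s33 with either filter (Cdc20; the lower filter without these libraries was added after the data were seen), 12 with only the groups compared, and 5 (without s32) to 14 (without s31) with 1 library left out. Over all genes, 848 of 10179 rose with library size only, against 339 in the main fit. The lower filter gave 326 of 17586 and the groups compared alone 267 of 9756. Without s32 and without s31, 238 of 10104 and 394 of 10188 rose. For shChREBP in L-G6pc+/+ livers 0 became 1 (Aurka) with DESeq2, with limma on the deposited values, without s29, s30, s32 and s33 with either filter, and without s5 (range 0 to 1). For G6pc deficiency under shSCR 0 became 1 with the deposited values and without s5 (Ckap2, range 0 to 1), and 2 with only the groups compared (Birc5 and Top2a). For G6pc deficiency under shChREBP 16 became 26 of 49 with the lower filter and without s29, s30, s32 and s33 4 with the main and 5 with the lower filter, and for shChREBP/L-G6pc-/- against shSCR/L-G6pc+/+ livers 18 became 42 of 49 with the lower filter and, without s29, s30, s32 and s33, 10 with the main and 15 with the lower filter. With 1 library left out these counts ran from 11 to 19 and from 16 to 23. Over all genes, 472 to 680 and 508 to 714 were higher in those fits. Over all 10399 genes tested with the main filter without s29, s30, s32 and s33, 36 were higher for shChREBP in L-G6pc-/- livers. For G6pc deficiency under shChREBP 551 were, and 175 between shChREBP/L-G6pc-/- and shSCR/L-G6pc+/+ livers. The lower filter tests more members and the smaller sets fewer libraries, and the cause of the other shifts was not tested. Of 39 single-member calls that could be refitted without those 4 libraries, 24 were lost, and of 715 refits without 1 library, 48.

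The summed level of only the members that did not pass the filter had a ratio of 2.06 for shChREBP in L-G6pc+/+, 2.18 for G6pc deficiency under shSCR and 6.64 for shChREBP/L-G6pc-/- against shSCR/L-G6pc+/+. Without Pttg1, Cks1b and Spc24, which held 33.9% of the sum and were set aside after the data were seen, it was 2.06 for G6pc deficiency under shSCR and 5.46 for the last comparison. In L-G6pc-/- livers, the members that did not pass the filter summed to a mean of 33.6 CPM with shSCR and 102 CPM with shChREBP. The log2 difference of Cks1b with shChREBP in L-G6pc-/- livers changed sign to 0.10 with library size only, 0.0157 with limma-voom, 0.0217 with the deposited values, 0.0251 without s29, s30, s32 and s33 (0.0275 with the lower filter), and -0.0818 to 0.0793 with 1 library left out, and that of Mki67 to -0.16 without s29, s30, s32 and s33 with either filter. No paired analysis was possible because the groups share no replicate numbers. Members of under 100 counts in all cannot show differences smaller than the counting error of a few reads.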
